A study of Mus musculus with 6 samples.

Results

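Transcripts that are typical of the kidney nephron were examined in RNA sequencing libraries of mouse colon. The 33 genes were chosen by symbol from a table of 30777 genes, and each symbol matched 1 row. They were chosen because Kap, Umod and others had been seen at high levels in 5-Fu+BBR replicates 2 and 3. Their levels in the 6 libraries are therefore given as a description, with no test. All libraries came from colon tissue of BALB/c mice, an inbred strain. The 5-Fu+BBR group (3 libraries) had been given 5-fluorouracil and berberine, a plant alkaloid. The 5-Fu group (3 libraries) had been given 5-fluorouracil alone, a pyrimidine analogue used in chemotherapy, so that all 6 libraries share this drug. The labels used here give no dose, time, age or sex, and do not say whether the libraries of a group came from separate animals. The one comparison of the design asked which colon genes differ when berberine is added.

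The nephron filters blood in the glomerulus, whose podocytes form the slit diaphragm, and then reclaims or secretes solutes along a series of tubule segments. The proximal tubule takes back glucose, phosphate, amino acids and filtered protein and secretes organic anions and cations. The thick ascending limb and the distal convoluted tubule reabsorb salt, and the collecting duct adjusts water and acid. Several of these genes are also known from other organs, such as Hpd, an enzyme of the liver, and Podxl, which endothelium carries.

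The estimated counts deposited for each library summed to between 53824752 and 63831168. The labelled tissue was checked by 12 genes of colon epithelium, among them Cdx1, Cdx2, Krt20 and Lgals4. All 12 were present, with a summed FPKM (fragments per kilobase of transcript, scaled to the depth of the library) of 3486, 3043 and 3374 in 5-Fu+BBR replicates 1 to 3 and 3701, 3047 and 4153 in 5-Fu replicates 1 to 3. Ddx3y of the Y chromosome was at 7.17 to 9.90 FPKM in 5-Fu+BBR and 7.51 to 9.55 FPKM in 5-Fu, and Xist at no more than 0.168 FPKM in any library. The 33 kidney genes held 0.0151%, 0.0602% and 0.0585% of the summed FPKM in 5-Fu+BBR replicates 1 to 3 and 0.0133% to 0.0147% in the 5-Fu libraries. These are bulk samples, in which more cells of a type and more RNA per cell cannot be told apart.

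Most kidney genes stood far above the 5-Fu level in 5-Fu+BBR replicates 2 and 3 and close to it in 5-Fu+BBR replicate 1. Of the 33 genes, 28 had more than 12 estimated counts in the 5-Fu libraries together, the floor below which no fold is given here (about 3 fragments). Of these, 20 were at least 4-fold above the mean of 5-Fu in both 5-Fu+BBR replicates 2 and 3, and 0 were in replicate 1. Among all 22019 genes above the same floor, the shares were 1.13% for replicates 2 and 3 together and 0.827% for replicate 1. The genes were chosen with this difference known, so nothing is read from the comparison of these shares. The median of the 20 genes was 10.9-fold in replicate 2, 10.8-fold in replicate 3 and 1.07-fold in replicate 1.

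**Figure D1:**
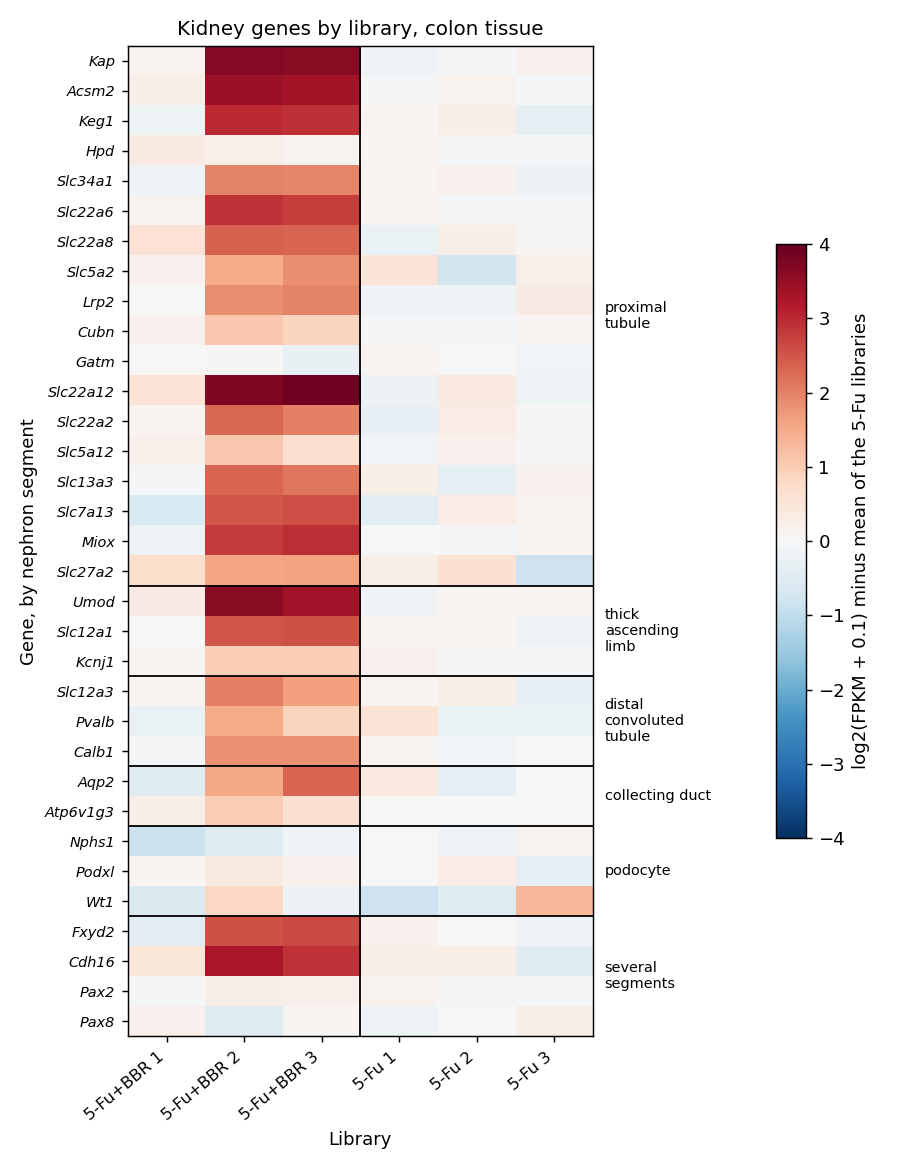
Heat map of the 33 kidney genes (vertical axis, by nephron segment) in the 6 libraries (horizontal axis). Colour gives log2(FPKM + 0.1) minus the mean of the 5-Fu libraries. The columns of 5-Fu+BBR 2 and 3 are red for most tubule genes. Their medians over the 33 genes are 1.85 and 1.95, against 0.08 in 5-Fu+BBR 1. Hpd and Gatm of the proximal tubule, Pax8 of several segments, and Nphs1 and Podxl of the podocyte stay pale.

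The proximal tubule gave the highest levels. Kap, a secreted kidney protein that androgen induces in the proximal tubule of mice (ENSMUSG00000032758, chromosome 6, 133849851 to 133853762, minus strand, GRCm38), was at 11.5, 133 and 127 FPKM in 5-Fu+BBR replicates 1 to 3. In 5-Fu replicates 1 to 3 it was at 9.45, 10.04 and 11.6 FPKM. Replicate 1 of 5-Fu+BBR thus lay within the range of 5-Fu, and replicates 2 and 3 were 12.9-fold and 12.2-fold above the 5-Fu mean. Kap alone made up 65.5% and 65.0% of the summed FPKM of the 33 genes in 5-Fu+BBR replicates 2 and 3, against 22.9% in 5-Fu+BBR replicate 1 and 20.4% to 25.8% in 5-Fu.

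The enzymes Acsm2, Miox and Keg1 were also far higher in 5-Fu+BBR replicates 2 and 3 than in the other 4 libraries. Acsm2, a medium-chain acyl-CoA synthetase (ENSMUSG00000030945, chromosome 7, 119554340 to 119600690, plus strand), was at 0.294, 3.49 and 3.22 FPKM in 5-Fu+BBR replicates 1 to 3 and 0.217, 0.259 and 0.212 FPKM in 5-Fu. Miox, which opens the ring of myo-inositol, was at 0.287, 2.97 and 3.33 FPKM in 5-Fu+BBR and 0.339, 0.326 and 0.369 FPKM in 5-Fu. Keg1, a member of the glycine N-acyltransferase family, was at 0.118, 1.82 and 1.753 FPKM in 5-Fu+BBR and 0.164, 0.188 and 0.0904 FPKM in 5-Fu. For Miox and Keg1, 5-Fu+BBR replicate 1 lay below or within the range of 5-Fu. For Acsm2 it lay just above it.

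Hpd, Gatm and Slc27a2 were already at 1.15 FPKM or more in every 5-Fu library and stood below the 4-fold line. Hpd, which breaks down tyrosine, was at 18.1, 16.3 and 15.7 FPKM in 5-Fu+BBR and 15.1, 13.6 and 13.9 FPKM in 5-Fu, highest in 5-Fu+BBR replicate 1. Gatm, the first enzyme of creatine synthesis, was at 7.38, 7.58 and 5.94 FPKM in 5-Fu+BBR and 7.93, 7.36 and 6.77 FPKM in 5-Fu, and the groups overlapped. Slc27a2, which activates very long-chain fatty acids and carries them into cells, was at 3.51, 6.51 and 6.59 FPKM in 5-Fu+BBR and 2.51, 3.25 and 1.15 FPKM in 5-Fu, 2.83-fold and 2.87-fold the 5-Fu mean in replicates 2 and 3. Hpd overlaps Psmd9 on the opposite strand, and whether strand was used in counting is not stated.

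The organic anion and cation transporters were all highest in 5-Fu+BBR replicates 2 and 3. Slc22a12, the urate transporter URAT1, was at 0.304, 3.58 and 4.02 FPKM in 5-Fu+BBR and 0.138, 0.264 and 0.149 FPKM in 5-Fu. Slc22a6, the organic anion transporter OAT1, was at 0.110, 1.34 and 1.21 FPKM in 5-Fu+BBR and 0.102, 0.0869 and 0.0880 FPKM in 5-Fu. Slc22a8, the anion transporter OAT3, reached 0.516 and 0.504 FPKM in 5-Fu+BBR replicates 2 and 3, and Slc22a2, the cation transporter OCT2, 0.519 and 0.406 FPKM. Both had only 20 and 15 estimated counts in the 5-Fu libraries together, so that their folds of 15.2 to 23.9 are poorly fixed.

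Transporters of phosphate, glucose and other solutes spanned a wider range of folds. Slc34a1, the sodium-phosphate cotransporter NaPi-IIa, was at 1.08, 5.20 and 5.03 FPKM in 5-Fu+BBR and 1.3005, 1.38 and 1.02 FPKM in 5-Fu, which placed it just inside the 4-fold line at 4.20-fold and 4.07-fold. Cubn, the receptor cubilin for filtered protein, lay just outside it at 4.64-fold in replicate 2 and 3.80-fold in replicate 3. Its partner megalin, Lrp2, was at 0.0516, 0.435 and 0.486 FPKM in 5-Fu+BBR and 0.0333, 0.0306 and 0.0877 FPKM in 5-Fu. Slc5a2, the glucose transporter SGLT2, overlaps BC017158 on the opposite strand, which averaged 3.96 FPKM in 5-Fu. Slc5a2 itself reached 0.441 and 0.592 FPKM in 5-Fu+BBR replicates 2 and 3 and no more than 0.175 FPKM elsewhere. Slc13a3, which carries dicarboxylates, reached 0.825 and 0.704 FPKM in the same 2 libraries, and Slc7a13, an amino acid transporter of the late proximal tubule, 1.19 and 1.28 FPKM. In 5-Fu+BBR replicate 1 both were below the mean of 5-Fu. Slc5a12, a lactate transporter, had 8, 34 and 20 estimated counts in 5-Fu+BBR and 9 in the 5-Fu libraries together.

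**Figure D2:**
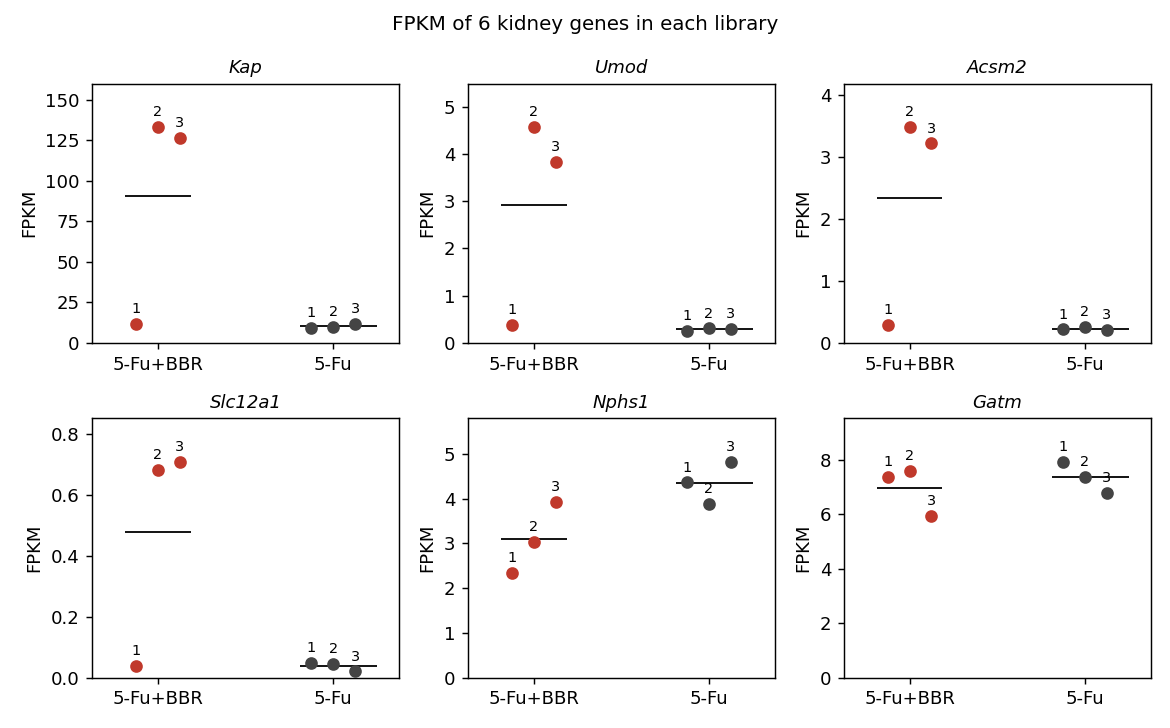
FPKM (vertical axes, linear, from 0) of Kap, Umod, Acsm2, Slc12a1, Nphs1 and Gatm in the 5-Fu+BBR libraries (left, red) and the 5-Fu libraries (right, grey). Each point is 1 library with its replicate number, and lines are group means. For Kap, Umod, Acsm2 and Slc12a1 the points of 5-Fu+BBR 2 and 3 stand apart from the other 4, whereas Nphs1 and Gatm show no such gap.

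Genes of the thick ascending limb and the distal convoluted tubule were high in the same libraries. Umod, which encodes uromodulin, the main protein of normal urine and a product of the thick ascending limb (ENSMUSG00000030963, chromosome 7, 119462711 to 119479282, minus strand), was at 0.378, 4.57 and 3.83 FPKM in 5-Fu+BBR and 0.246, 0.306 and 0.301 FPKM in 5-Fu. Slc12a1, the cotransporter NKCC2 that loop diuretics block, was at 0.0395, 0.683 and 0.710 FPKM in 5-Fu+BBR and 0.0486, 0.0442 and 0.0207 FPKM in 5-Fu. Slc12a3, the thiazide-sensitive cotransporter NCC of the distal convoluted tubule, was at 0.0672, 0.549 and 0.394 FPKM in 5-Fu+BBR and 0.0704, 0.0854 and 0.0273 FPKM in 5-Fu. In these 3 genes the 2 high libraries exceeded the highest of the other 4 several times over. Calb1, the calcium buffer calbindin-D28K, was 7.51-fold and 7.55-fold above the 5-Fu mean in replicates 2 and 3.

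Promoter windows were read from RefSeq's table for GRCm38.p6, which matched 25 of the 33 genes. TATAAA, the core promoter motif bound by the TATA-binding protein, was searched on the strand of the gene in the 250 bases before RefSeq's start of transcription, and Kap, Acsm2, Miox and Slc12a3 held it. For Kap and Miox 95 and 75 bases of the window lie inside the gene by its deposited coordinates, whose start differs from RefSeq's. These windows are not shown. The windows of Acsm2, with 0 such bases, and Slc12a3, with 7, follow 5′ to 3′ with TATAAA in capitals.
Acsm2, chr7:119554090-119554339, plus strand: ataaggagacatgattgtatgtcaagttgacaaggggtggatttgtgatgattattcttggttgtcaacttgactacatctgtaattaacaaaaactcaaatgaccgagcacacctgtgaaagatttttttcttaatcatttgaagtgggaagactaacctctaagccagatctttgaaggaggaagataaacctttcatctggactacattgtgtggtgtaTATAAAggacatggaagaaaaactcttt
Slc12a3, chr8:94328958-94329207, plus strand: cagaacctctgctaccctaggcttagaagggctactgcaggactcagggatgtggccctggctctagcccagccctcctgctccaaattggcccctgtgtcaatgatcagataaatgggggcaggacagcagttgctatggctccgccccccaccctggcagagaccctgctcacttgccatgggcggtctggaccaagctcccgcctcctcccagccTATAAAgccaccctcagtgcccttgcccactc
TATAAA was in the window of 4 of the 25 genes and in 8.94% of all 27025 genes in the table. All 4 were among the 15 members with a window that were past the 4-fold line, and 0 of the 10 other members held it. The windows of Slc27a2, Nphs1, Kcnj1 and Slc34a1, among others, lie wholly inside the gene by its deposited coordinates. For Miox the bases after RefSeq's start were not matched to a transcript of the gene. The 4-fold line also rests on the values by which members were chosen, so nothing is read from this split. It began 28 bases before RefSeq's start in Acsm2 and 32 bases before it in Slc12a3. These matches describe the letters only.

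Aqp2, the vasopressin-regulated water channel of the collecting duct, was at 0.0261, 0.403 and 0.772 FPKM in 5-Fu+BBR and 0.131, 0.0325 and 0.0764 FPKM in 5-Fu. It was the only one of the 20 genes whose excess over 5-Fu in replicate 2 was less than 0.6 times that in replicate 3. Atp6v1g3, a proton pump subunit of intercalated cells, had 3, 13 and 7 estimated counts in 5-Fu+BBR and 0 in each 5-Fu library. Kcnj1, the potassium channel ROMK, had 4, 24 and 24 counts in 5-Fu+BBR and 4 in 5-Fu together, and Pvalb, a calcium buffer of the distal convoluted tubule, had 0, 16 and 9 in 5-Fu+BBR and 6 in 5-Fu together. These 3 genes are near the floor, where single fragments decide the value.

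The podocyte genes did not share the pattern. Nphs1, which encodes nephrin of the slit diaphragm (ENSMUSG00000006649, chromosome 7, 30458315 to 30487223, plus strand), was at 2.34, 3.04 and 3.93 FPKM in 5-Fu+BBR and 4.36, 3.89 and 4.83 FPKM in 5-Fu, so that 5-Fu+BBR replicates 1 and 2 were below all 5-Fu libraries. A ribosomal protein pseudogene, Rps12-ps4, lies within it on the opposite strand and averaged 59.3 FPKM in 5-Fu. Podxl, a sialomucin of podocytes and endothelium, was at 2.79, 3.43 and 2.99 FPKM in 5-Fu+BBR and 2.63, 3.29 and 2.096 FPKM in 5-Fu. Wt1, a transcription factor of podocytes and of mesothelium, was at 0.0185, 0.214 and 0.0502 FPKM in 5-Fu+BBR and 0.000, 0.0272 and 0.347 FPKM in 5-Fu, highest in 5-Fu replicate 3.

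Genes that span several segments split in the same way. Cdh16, the kidney-specific cadherin, was at 0.0967, 1.25 and 0.940 FPKM in 5-Fu+BBR and 0.0707, 0.0650 and 0.000 FPKM in 5-Fu, with the largest fold of all 28 genes in replicate 2 (27.6-fold). Fxyd2, the gamma subunit that tunes the sodium pump, was at 0.107, 1.57 and 1.68 FPKM in 5-Fu+BBR and 0.218, 0.179 and 0.159 FPKM in 5-Fu. The transcription factor Pax8 was at 1.08, 0.631 and 1.01 FPKM in 5-Fu+BBR and 0.805, 0.927 and 1.14 FPKM in 5-Fu, with overlap. Pax2, its relative, had 0, 8 and 7 counts in 5-Fu+BBR and 6 in 5-Fu together.

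**Figure D3:**
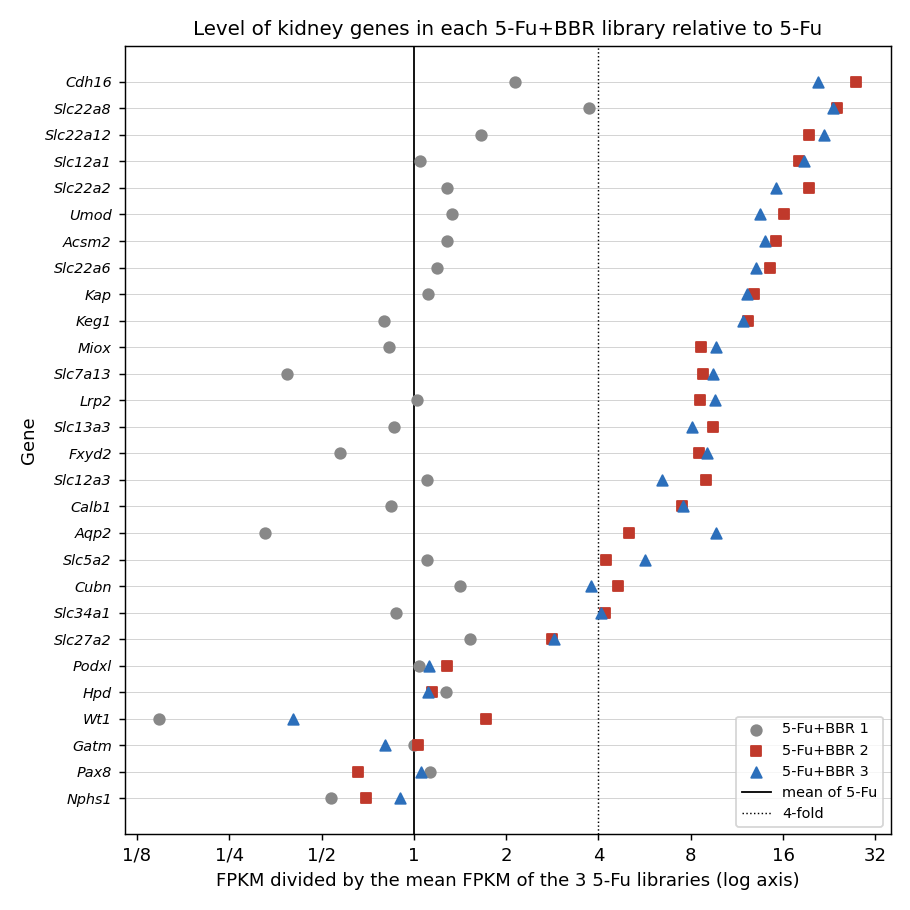
FPKM of 28 kidney genes in each 5-Fu+BBR library divided by the mean of the 3 5-Fu libraries (horizontal log axis; vertical axis, genes). Squares (replicate 2) and triangles (replicate 3) lie close together from 4-fold to 27.6-fold for most genes, circles (replicate 1) lie around 1, and Podxl, Hpd and Gatm lie between 0.808-fold and 1.28-fold in all 3 libraries.

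The amounts by which the 20 genes exceeded the 5-Fu mean were close to equal in the 2 high libraries. The excess in replicate 2 divided by that in replicate 3 had a median of 1.03, and it ran from 0.466 (Aqp2) to 1.47 (Slc12a3), with its 10th and 90th percentiles at 0.859 and 1.305. Over all 248 genes that passed the same 4-fold line the median was 1.07 and those percentiles were 0.607 and 2.15. The level in 5-Fu as a share of the level in replicate 2 varied more, from 3.62% (Cdh16) to 23.8% (Slc34a1) with a median of 9.33% over the 20 genes, and the 4-fold line itself caps this share. For Kap that share was 7.77%, for Umod 6.22% and for Acsm2 6.59%. The genes share libraries and were selected for high folds, so these ratios only describe them.

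Summed by segment, the members of the proximal tubule other than Kap came to 31.7, 53.0 and 51.1 FPKM in 5-Fu+BBR replicates 1 to 3 and 28.2, 27.2 and 24.3 FPKM in 5-Fu. The thick ascending limb genes came to 0.432, 5.36 and 4.65 FPKM in 5-Fu+BBR and 0.313, 0.350 and 0.322 FPKM in 5-Fu. Podocyte genes came to 5.15, 6.68 and 6.97 FPKM in 5-Fu+BBR and 6.99, 7.200 and 7.27 FPKM in 5-Fu. These sums of tubule genes thus separated 5-Fu+BBR replicates 2 and 3 from the rest, and the podocyte sum did not. The podocyte sum was mostly Nphs1 and Podxl, each at 2.096 FPKM or more in every library. A small excess would not show in it, so nothing is concluded about the glomerulus.

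Kidney genes outside the 33, listed by nephron segment from textbook knowledge, numbered 103, and 80 of them were above the floor. The lists, the floor and the 4-fold line were chosen with earlier results of these data known. Their shares are therefore given as a description only. At least 4-fold levels in both 5-Fu+BBR replicates 2 and 3 were found for 28 of the 80, again against 1.13% of all genes. They were 26 of 49 genes of the proximal tubule, 1 of 4 of the thick ascending limb (Ppp1r1a) and 1 of 5 of the distal convoluted and connecting tubule (Kl). They were 0 of 8 of collecting duct principal cells, 0 of 5 of intercalated cells, 0 of 6 of the podocyte and 0 of 3 nephron transcription factors. Several genes of these lists, such as Hsd11b2, Aqp4, Hnf4a and Cd2ap, were already high in 5-Fu. An excess of a few FPKM could not carry them past the 4-fold line, so these counts do not compare the segments. In 5-Fu+BBR replicate 1 the 4-fold line was passed by 1 of the 80, Ppp1r1a, an inhibitor of protein phosphatase 1, which was at 1.06, 1.04 and 1.09 FPKM in 5-Fu+BBR and 0.0878, 0.360 and 0.299 FPKM in 5-Fu.

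**Figure D4:**
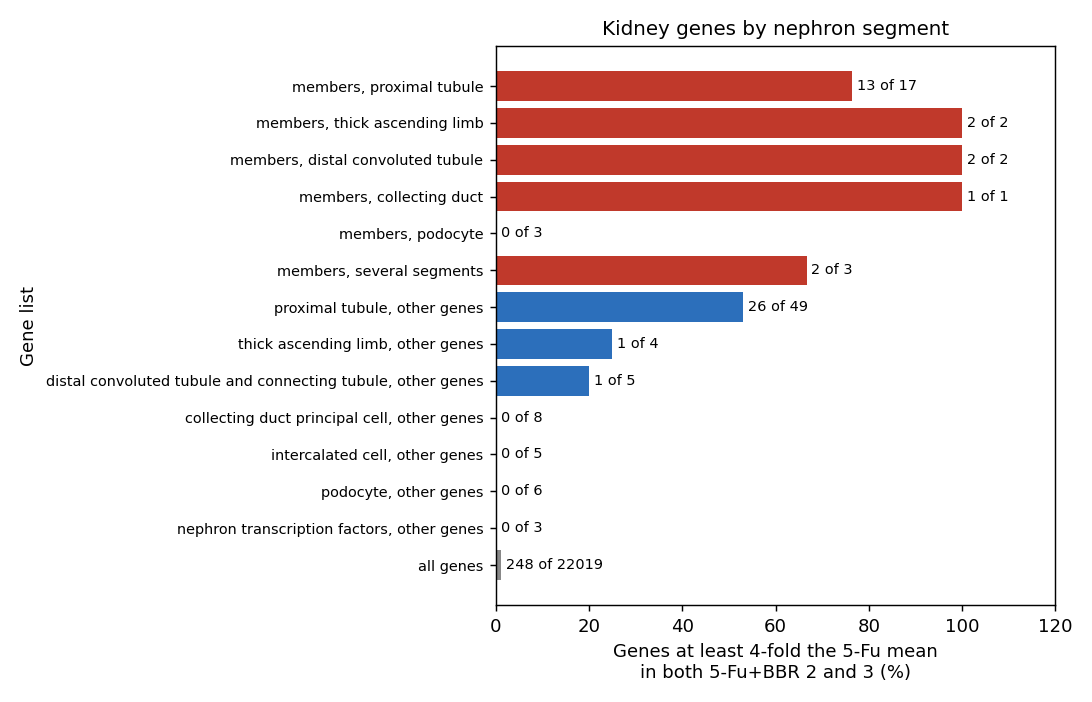
Percentage of genes (horizontal axis) with at least 4-fold the 5-Fu mean in both 5-Fu+BBR replicates 2 and 3, by gene list (vertical axis), with the members in red, other kidney genes in blue and all genes in grey. Counts are printed beside the bars, and the podocyte, principal cell and intercalated cell lists stand at 0 while proximal tubule lists stand at 13 of 17 and 26 of 49. Genes already high in 5-Fu could hardly reach 4-fold, so the bars do not compare the segments.

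Several of the listed kidney genes were abundant in the colon itself. Hsd11b2, which inactivates corticosteroids in aldosterone target cells, was at 169, 126 and 146 FPKM in 5-Fu+BBR and 161, 128 and 202 FPKM in 5-Fu. Aqp4, a water channel, was at 45.0, 53.8 and 48.0 FPKM in 5-Fu+BBR and 35.8, 37.6 and 72.0 FPKM in 5-Fu, and Tfcp2l1, a transcription factor, at 28.3, 29.3 and 31.6 FPKM in 5-Fu+BBR and 36.8, 31.4 and 43.9 FPKM in 5-Fu. The transcription factor Hnf4a was at 141.6, 122.3 and 148.3 FPKM in 5-Fu+BBR and 115.0, 122.7 and 146.9 FPKM in 5-Fu. For the podocyte, Cd2ap was at 10.4 to 12.4 FPKM in 5-Fu+BBR and 15.4 to 17.3 FPKM in 5-Fu, and Synpo at 7.11 to 9.17 FPKM in 5-Fu+BBR and 6.81 to 7.84 FPKM in 5-Fu. Wnk4, a kinase that regulates salt transport, was at 6.36 to 7.26 FPKM in 5-Fu+BBR and 5.26 to 6.05 FPKM in 5-Fu, and the magnesium channel Trpm6 and the sodium-calcium exchanger Slc8a1 overlapped between the groups.

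Among the proximal tubule genes outside the 33, those with the highest level in any library were also expressed in 5-Fu. Hao2, a hydroxy acid oxidase, was at 35.9, 56.6 and 83.7 FPKM in 5-Fu+BBR and 13.9, 16.8 and 65.7 FPKM in 5-Fu. Acsm3, a medium-chain acyl-CoA synthetase, was at 34.41, 40.04 and 41.57 FPKM in 5-Fu+BBR and 37.65, 26.05 and 51.54 FPKM in 5-Fu, and the groups overlapped. Akr1c21, Cyp2j5 and Cyp4b1, named after their values were seen, were 8.45-fold to 11.98-fold above the 5-Fu mean in 5-Fu+BBR replicates 2 and 3 and 0.987-fold to 1.59-fold in replicate 1. Ren1, which encodes renin, was at 0.000, 0.129 and 0.0680 FPKM in 5-Fu+BBR and 0.000, 0.0752 and 0.000 FPKM in 5-Fu. Egf of the thick ascending limb was at 0.254, 0.666 and 0.750 FPKM in 5-Fu+BBR and 0.168 to 0.232 FPKM in 5-Fu, while Sostdc1 overlapped. In intercalated cells Rhbg, an ammonium transporter, was at 1.61 to 2.04 FPKM in 5-Fu+BBR and 0.625 to 0.821 FPKM in 5-Fu, and Insrr and Slc26a4 overlapped.

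Profiles like that of Kap were sought among 15368 genes with a mean of at least 0.5 FPKM. The measure was the root mean square difference over the 6 libraries of log2(FPKM + 0.1) centred on the 5-Fu mean. The nearest was Umod (0.14), then Acsm2 (0.20), Akr1c21 (0.26) and Slc22a12 (0.30). Of the 10 nearest, 3 were members, 3 were other listed kidney genes and 4 were neither. Among all genes ranked, 13 were members. How many other listed kidney genes were ranked is not given here. Umod, Acsm2, Akr1c21 and Slc22a12 reached a mean of 0.5 FPKM only through 5-Fu+BBR replicates 2 and 3. Members were also chosen with these values known, so nothing is read from the nearness of any kidney gene to Kap. Outside all kidney lists the nearest 10 were Ugt2b38 (0.34) and Ugt3a2, members of UDP-glycosyltransferase families, the cytochrome Cyp2c55, the predicted genes Gm42893 and Gm45140, and 5 immunoglobulin kappa variable segments, Igkv4-57-1, Igkv17-121, Igkv9-124, Igkv4-63 and Igkv17-127. Ugt2b38 was at 0.231, 3.14 and 2.76 FPKM in 5-Fu+BBR and 0.209, 0.299 and 0.254 FPKM in 5-Fu. Immunoglobulin segments belong to families of similar copies, and single values of them are uncertain.

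In the fit over all genes, edgeR's quasi-likelihood test with Benjamini-Hochberg adjustment, 20101 genes passed the filter on low counts, 27 of the 33 members among them. At an adjusted p under 0.05 it called 15 genes, 12 higher and 3 lower in 5-Fu+BBR, which is 0.0746% of those tested (0.0597% higher and 0.0149% lower), and 0 of the 27 members. At an unadjusted p under 0.05 it gave 20 of the 27 members (19 higher and 1 lower), against 15.6% of all genes tested. The groups did not overlap for 9 members, all higher in 5-Fu+BBR, against 12.3% of all genes tested. DESeq2 called 17 of the 27 members, all higher, and 6.10% of all genes tested (4.37% higher). Without 5-Fu+BBR replicate 1, edgeR called 10 of 30 members tested, all higher, and 0.260% of all genes tested (0.187% higher), which is 54 genes. Since these genes were chosen on this contrast, nothing is read from these counts. The median log2 fold change was 2.52 over the 27 members and 0.01 over all genes tested. Kap, for example, had a mean of 90.6 ± 68.6 FPKM in 5-Fu+BBR and 10.4 ± 1.12 FPKM in 5-Fu (SD, n = 3 each), so that its spread within 5-Fu+BBR was close to the size of the difference.

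Of the 103 other kidney genes 77 were tested, and 0 passed at an adjusted p under 0.05 by edgeR, against 35 at an unadjusted p under 0.05 (32 higher and 3 lower, where 9.48% and 6.08% of all genes were). DESeq2 called 26, 23 of them higher, where it called 6.10% of all genes tested and 4.37% higher. Their median log2 fold change was 0.98. The 5-Fu+BBR libraries were all above those of 5-Fu for 21 and all below for 3 of the 77, against 12.3% and 9.68% of all genes tested. The lists were made with earlier results of these data known, so these counts only describe them. Cyp2e1, a cytochrome of liver and kidney, had the smallest adjusted p of the 77 (log2 fold change 2.74 ± 0.37, adjusted p = 0.0705 by edgeR), with 6.51, 15.5 and 10.7 FPKM in 5-Fu+BBR and 1.57, 2.37 and 0.974 FPKM in 5-Fu. Fxyd4, a regulator of the sodium pump in collecting duct and colon, was the next and lay the other way, at 0.725, 0.290 and 0.428 FPKM in 5-Fu+BBR and 14.1, 4.17 and 3.87 FPKM in 5-Fu (log2 fold change -3.85 ± 0.66, adjusted p = 0.103 by edgeR).

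Markers of other cell types also varied between the libraries, though 0 of those listed passed at an adjusted p under 0.05 by edgeR. The summed FPKM of 6 B and plasma cell genes was 178, 472 and 458 in 5-Fu+BBR replicates 1 to 3 and 85.5, 132 and 156 in 5-Fu. For 4 erythroid genes it was 14.4, 45.9 and 98.2 in 5-Fu+BBR and 6.30, 15.5 and 2.88 in 5-Fu. For 7 white adipocyte genes it was 39.7, 81.5 and 46.5 in 5-Fu+BBR and 5.42, 12.9 and 4.01 in 5-Fu, with Lep at 0 in all 5-Fu libraries, and all 7 genes were higher in each 5-Fu+BBR library than in any 5-Fu library. For 6 T cell genes it was 10.4, 17.5 and 15.7 in 5-Fu+BBR and 5.23, 6.83 and 5.75 in 5-Fu, and for 5 smooth muscle genes 1027, 1245 and 1132 in 5-Fu+BBR and 719, 588 and 540.3 in 5-Fu. For 8 liver genes it was 69.3, 53.4 and 63.9 in 5-Fu+BBR and 58.6, 57.6 and 44.2 in 5-Fu. For 5 neutrophil genes it was 346, 267 and 222 in 5-Fu+BBR and 456, 302 and 366 in 5-Fu, most of it Ly6g. Within that list S100a8 was at 10.7, 0.311 and 0.155 FPKM in 5-Fu+BBR and 43.7, 42.3 and 3.02 FPKM in 5-Fu. S100a9 was at 10.09, 0.353 and 0.0988 FPKM in 5-Fu+BBR and 39.9, 26.8 and 1.16 FPKM in 5-Fu, so that both were lowest in 5-Fu+BBR replicates 2 and 3. Genes of the neighbouring adrenal cortex were low throughout, with a sum over 7 genes of 1.08, 2.12 and 2.103 in 5-Fu+BBR and 1.83, 1.87 and 2.07 in 5-Fu, and the 5 urothelial genes came to 3.17 to 4.43 in 5-Fu+BBR and 2.16 to 6.09 in 5-Fu. The part of these cell types in the kidney gene levels was not tested.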

How the data were processed

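RNA was measured in 3 libraries of 5-Fu+BBR and 3 of 5-Fu, grouped by the labels' treatments. Per the labels' protocols, polyadenylated RNA was made into strand-marked, paired-end libraries with molecular identifiers. Per the submitters' processing notes, StringTie 1.3.4d, HISAT2 2.0.4, cutadapt 1.9, UMI-tools, edgeR, DESeq2 and the build GRCm38 were used, without a role or an order. The sources used here do not say whether identifiers entered the counting. The authors deposited 1 table with estimated counts (whole numbers) and FPKM for each gene and library, and both were used as deposited. In every library, counts followed FPKM times transcript length to within 2% for 92.1% or more of single-transcript genes above 50 counts, so they derive from coverage. In single-transcript genes, deposited counts of 1, 2, 3, 4 and 5 occurred 5033, 3466, 3166, 4657 and 1653 times. Because of the secondary peak at 4, 1 fragment was taken as about 4 counts, although counts below 4 were common. The floor of 3 fragments, 12 counts over the 5-Fu libraries, covers counting error only.

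Symbols were matched exactly, except Tmem27, found under its newer symbol Cltrn. After filterByExpr and TMM scaling, edgeR 4.0.16 in R 4.3.3 gave two-sided tests with no covariates, and limma 3.58.1 and DESeq2 1.42.0 were alternatives. No label names separate animals, so the p-values reflect only how these libraries vary, which may be technical. Chi-square values per gene between libraries of a group were 18.4 to 34.5, so no pair agreed within sampling noise. In simulated data sets of this comparison with 19604 genes, edgeR recovered 43.3% of the 2-fold and 88.0% of the 4-fold differences. These rates are not applied to the members, most of which were high in only 2 of the 3 libraries given berberine. Of the 27 members tested, edgeR called 0. The members, the lists, the floor and the 4-fold line were chosen with earlier results of these data known. All members were named, with up to 3 other kidney genes per list by highest FPKM, and the 10 remaining genes nearest to Kap. Some genes that this rule names are not reported here. Figures were drawn with matplotlib 3.10.9.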

Additional observations from a re-analysis of the deposited data

How the results depend on the processing

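The count of genes called over the whole table was 15 and depended on the method. It was 77 with no filter, 1226 by DESeq2, 144 at an adjusted p under 0.1, 113 with a replicate block and 0 with 5-Fu+BBR replicate 1 alone against 5-Fu, an alternative chosen after seeing the data, and it ranged from 0 to 159 when 1 library was left out (0 without 5-Fu+BBR replicate 2 or 5-Fu replicate 1, 159 without 5-Fu replicate 2). The members called, 0 by edgeR, were 17 by DESeq2 and 0 to 10 with 1 library left out. The other kidney genes called, also 0, were 26 by DESeq2, 1 at an adjusted p under 0.1, 3 with the replicate block and 0 to 7 with 1 library left out, 7 without 5-Fu+BBR replicate 1. Libraries with the same replicate number deviated together with correlations of 0.06, 0.02 and 0.12. Between libraries with different numbers the correlations ran from -0.146 to 0.104. With 3 libraries per group, these values cannot decide whether the numbers pair the libraries.

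The median log2 difference of the 33 members from 5-Fu was 0.08, 1.85 and 1.95 in 5-Fu+BBR replicates 1 to 3 on log2(FPKM + 0.1). It was 0.011, 0.55 and 0.53 on log2(FPKM + 1), which shrinks low genes, and 0.20, 2.56 and 2.59 on log2(CPM + 0.1). With 5-Fu+BBR replicate 1 alone the log2 fold change turned to -0.22 for Keg1, -0.14 for Slc34a1, 0.044 for Gatm, -0.11 for Slc13a3, -1.21 for Slc7a13, -0.27 for Miox, -0.26 for Calb1, -1.53 for Aqp2, -0.73 for Fxyd2 and 0.20 for Pax8. That of Wt1, -0.52, was 1.46 by limma-voom, 1.06 with the replicate block and -1.90 to 2.77 with 1 library left out. Those of Gatm and Pax8 ran from -0.15 to 0.033 and from -0.25 to 0.14 with 1 library left out. Of the comparisons of a single member with an alternative, 16 turned direction, 357 kept direction and call and 27 kept direction and became a call. Depth limits the 5 members at or under 12 counts in 5-Fu. The causes were not tested.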

Other observations

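Genes of the exocrine pancreas were looked at as a neighbouring tissue. Cela2a, Cpa1, Pnlip and Amy2b, which encode digestive enzymes, were listed at 0 in every library but 5-Fu+BBR replicate 2, where they were at 0.348, 0.0981, 0.502 and 0.112 FPKM. Ctrb1, a chymotrypsinogen, was at 0, 2.26 and 0 FPKM in 5-Fu+BBR replicates 1 to 3 and at most 0.124 FPKM in 5-Fu. Prss2, a trypsinogen, was at 0, 0.850 and 0 FPKM in 5-Fu+BBR and at most 0.149 FPKM in 5-Fu. The other genes of the list were present in all libraries, Cela1 at 58.1, 76.96 and 69.5 FPKM in 5-Fu+BBR and 71.6, 51.8 and 70.6 FPKM in 5-Fu, and Cpb1 at 0.122, 0.279 and 0.204 FPKM in 5-Fu+BBR and 0.0311, 0.135 and 0.0389 FPKM in 5-Fu. The sum over the 8 genes was 58.2, 81.4 and 69.7 FPKM in 5-Fu+BBR and 71.6, 51.96 and 70.9 FPKM in 5-Fu. In 5-Fu+BBR replicate 3, Cela2a, Cpa1, Pnlip, Amy2b, Ctrb1 and Prss2 were listed at 0, and Cela1 and Cpb1 were at 69.5 and 0.204 FPKM. A relation between the pancreas and kidney genes was not tested. The summed FPKM of 6 mast cell genes was highest in 5-Fu+BBR replicate 2, at 10.8, 37.2 and 12.1 in 5-Fu+BBR and 7.99, 9.18 and 6.77 in 5-Fu. Among them Cma1 was not, at 5.04, 5.07 and 5.69 FPKM in 5-Fu+BBR and 5.87, 6.15 and 3.32 FPKM in 5-Fu.

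Of the 248 genes at least 4-fold above the 5-Fu mean in both 5-Fu+BBR replicates 2 and 3, 20 were members, 28 were other kidney genes, 48 were immunoglobulin segments and 152 were none of these. Among 214 immunoglobulin segments above the floor, the median was 3.44-fold in replicate 2, 3.06-fold in replicate 3 and 1.28-fold in replicate 1. The excess of the 48 segments in replicate 2 divided by that in replicate 3 ran from 0.243 to 6.72. Its 10th and 90th percentiles were 0.714 and 2.78. For the 20 members it ran from 0.466 to 1.47 (percentiles 0.859 and 1.305). For the 28 other kidney genes it ran from 0.510 to 1.88 (percentiles 0.675 and 1.33). The differences between these sets were not tested.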
